A study of Mus musculus with 32 samples.

Results

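The B lineage genes followed here were Ebf1, Pax5, Igll1, Vpreb1, Vpreb3, Cd79a, Cd79b and Ms4a1, 8 of the 41388 genes counted in each library, of which 40254 had a symbol. They were taken by symbol and read library by library in 24 RNA-seq libraries of sorted mouse blood stem and progenitor cells. No member tested passed the adjusted test of edgeR in any of the 12 comparisons, and what the libraries show is mainly the level of each gene and how far replicate pools lay apart.

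Ebf1 and Pax5 are transcription factors: Ebf1 starts the B cell programme in lymphoid progenitors, and Pax5 commits cells to it. Igll1 (lambda5) and Vpreb1 form the surrogate light chain, which pairs with the newly made heavy chain to give the pre-B cell receptor, and Vpreb3 is a related protein of the same stages. Cd79a and Cd79b are the signalling chains of the pre-B and B cell receptors, and Ms4a1 encodes CD20, a surface protein of later B cells. Stem cells are not B cells, and early lymphoid-primed progenitors are known to carry low levels of some of these transcripts.

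All mice were C57BL/6. Haematopoietic stem cells (HSC) were sorted as Lin-, cKit+, Sca1+, CD150+, CD48-, and multipotent progenitors (MPP) by the same gate but CD150-. In the Vav cohort, mice of 8 weeks carried Vav-CRE, a recombinase active throughout blood cells, and were either wild-type controls or Jarid2-KO, with 3 HSC and 3 MPP libraries each. In the Mx1 cohort, mice of 10 weeks carried Mx1-CRE, which is switched on by the interferon inducer pIpC, given 2 months before. These were wild-type controls, Jak2V617F, which carries an activating form of the kinase Jak2, and Jak2V617F - Jarid2KO, called the double mutant here, with 2 HSC and 2 MPP libraries each. Jarid2 is a partner of Polycomb repressive complex 2. Per the protocol text each library came from pooled marrow of male and female mice, with the pool given as 5 and 5 mice in one place and 3 and 3 in another. Sample labels and design text disagree on 1 Mx1 genotype: samples are labelled Jak2V617F, but the text lists Jarid2-KO without it; groups follow the samples. The p-values measure the spread between such pools.

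Library totals were 10473535 to 27232379 counts in the Vav cohort and 7852483 to 20724168 in the Mx1 cohort. Jarid2 counts were not lower in the libraries labelled knockout (80.2 to 144 CPM, which are counts scaled to the library total, in Vav Jarid2-KO HSC against 77.6 to 109 in controls); they add up all exons, and the deleted part is not given in the sources used here, so they do not check the genotype. The first Jarid2-KO MPP library of the Vav cohort went against the mixed-sex pool of the protocol, with 1.82 CPM of Xist, a transcript of female cells, against 191 to 376 in the other 11. In the Vav libraries Slamf1 (CD150), the marker that sets HSC and MPP apart, followed the labels, at 57.4 to 95.5 CPM in HSC and 2.19 to 14.1 in MPP. Cd48, which the gate excludes from both, was at 6.46 to 29.3 CPM in HSC and 26.3 to 50.7 in MPP. Its mean was 24.6 CPM in Jarid2-KO HSC and 10.3 in control HSC. In the control and Jak2V617F libraries of the Mx1 cohort, transcripts of the sort markers went against the labels. The 4 libraries labelled control or Jak2V617F HSC held 0.196, 5.21, 12.7 and 5.04 CPM of Slamf1, against 30.8 and 124 in double-mutant HSC. The same 4 held 122, 133, 123 and 93.7 CPM of Cd48, against 13.9 and 20.2 in double-mutant HSC. In MPP Cd48 was at 127 and 37.4 CPM in controls, 41.6 and 60.7 in Jak2V617F and 38.8 and 55.5 in double mutants. Over all 8 control and Jak2V617F libraries, Ly6a (Sca1) was at 6.71 to 63.4 CPM and the stem cell marker Procr at 0.0654 to 8.89, against 78.2 to 190 and 24.8 to 74.4 in the 4 double-mutant libraries. Further, 6 of the 12 Mx1 libraries had 6.03 to 9.20% of their counts in a list of 20 heart muscle genes, and the other 6 had 0.521 to 1.20%. No Mx1 comparison with control or Jak2V617F can be made without the 8 libraries, so each is given by its labels.

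Sequence upstream of a RefSeq transcript start (GRCm38.p6) was read for 6 of the 8 members, all but Cd79b and Ms4a1. The windows of Igll1, Vpreb3 and Cd79a are shown because these genes had among the widest differences between libraries; Cd79a is cut where the annotated exon of the count files begins, and the Vpreb3 window lies inside the annotated gene, before an internal transcript start at 75948300. Capitals mark CCCNNGGG, the core of the site that Ebf1 is known to bind, which reads the same on both strands. It was searched in 250 bases before each such start, lay in 1 of the 7 member windows and was held by 11.8% of the 32851 windows in the table. The match in Igll1 begins 231 bases before that start. A match is a description of letters and not a bound site. Only exact matches were counted, so letters that depart from the core by 1 base, such as ctcaaggg in the Cd79a window, are unmarked. A window without a match can therefore still hold a site.
Igll1, chr16:16863986-16864235, minus strand: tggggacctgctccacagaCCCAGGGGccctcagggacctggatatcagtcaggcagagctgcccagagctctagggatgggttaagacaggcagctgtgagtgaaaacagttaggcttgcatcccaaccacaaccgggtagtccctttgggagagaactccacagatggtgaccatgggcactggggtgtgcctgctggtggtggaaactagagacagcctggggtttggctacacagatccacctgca
Vpreb3, chr10:75948050-75948299, plus strand: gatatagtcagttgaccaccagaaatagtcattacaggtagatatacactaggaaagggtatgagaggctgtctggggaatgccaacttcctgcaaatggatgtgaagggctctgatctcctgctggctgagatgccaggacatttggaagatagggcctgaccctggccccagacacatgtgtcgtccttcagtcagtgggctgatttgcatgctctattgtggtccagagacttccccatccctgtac
Cd79a, chr7:24897247-24897380, plus strand: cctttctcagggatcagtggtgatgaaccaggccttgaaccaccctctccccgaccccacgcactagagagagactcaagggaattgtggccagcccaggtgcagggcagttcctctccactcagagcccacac

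Levels of different genes were compared per length, as RPKM, which is CPM divided by the exon length in kilobases. In the Vav cohort Cd79b stood far above the other members, with a median of 57.5 RPKM over 12 libraries (45.1 to 93.8). Igll1 followed at 3.05 (1.08 to 9.19), then Vpreb3 at 1.55 (0.941 to 9.79), Cd79a at 1.35 (0.202 to 4.66) and Vpreb1 at 1.20 (0.470 to 5.25), whose ranges overlapped. Ebf1 had a median of 0.317 RPKM (0.0979 to 1.98), Ms4a1 of 0.0212 (0 to 0.152) and Pax5 of 0 (0 to 0.153). The Vav libraries thus held Cd79b at high levels beside little of its partner chain Cd79a and almost no Pax5.

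In the Mx1 cohort the medians were 30.2 RPKM for Cd79b (10.0 to 60.9), 20.7 for Igll1 (0.614 to 78.3) and 20.5 for Vpreb3 (0.387 to 65.3). Cd79a had a median of 9.30 RPKM, Vpreb1 of 5.22, Ebf1 of 4.10, Pax5 of 0.461 and Ms4a1 of 0.236. The order of the medians was that of the Vav cohort, except that Pax5 and Ms4a1, the lowest in both, changed places. The cohorts differed in age, Cre driver, pIpC and heart transcripts, and their levels were not tested against each other.

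**Figure D1:**
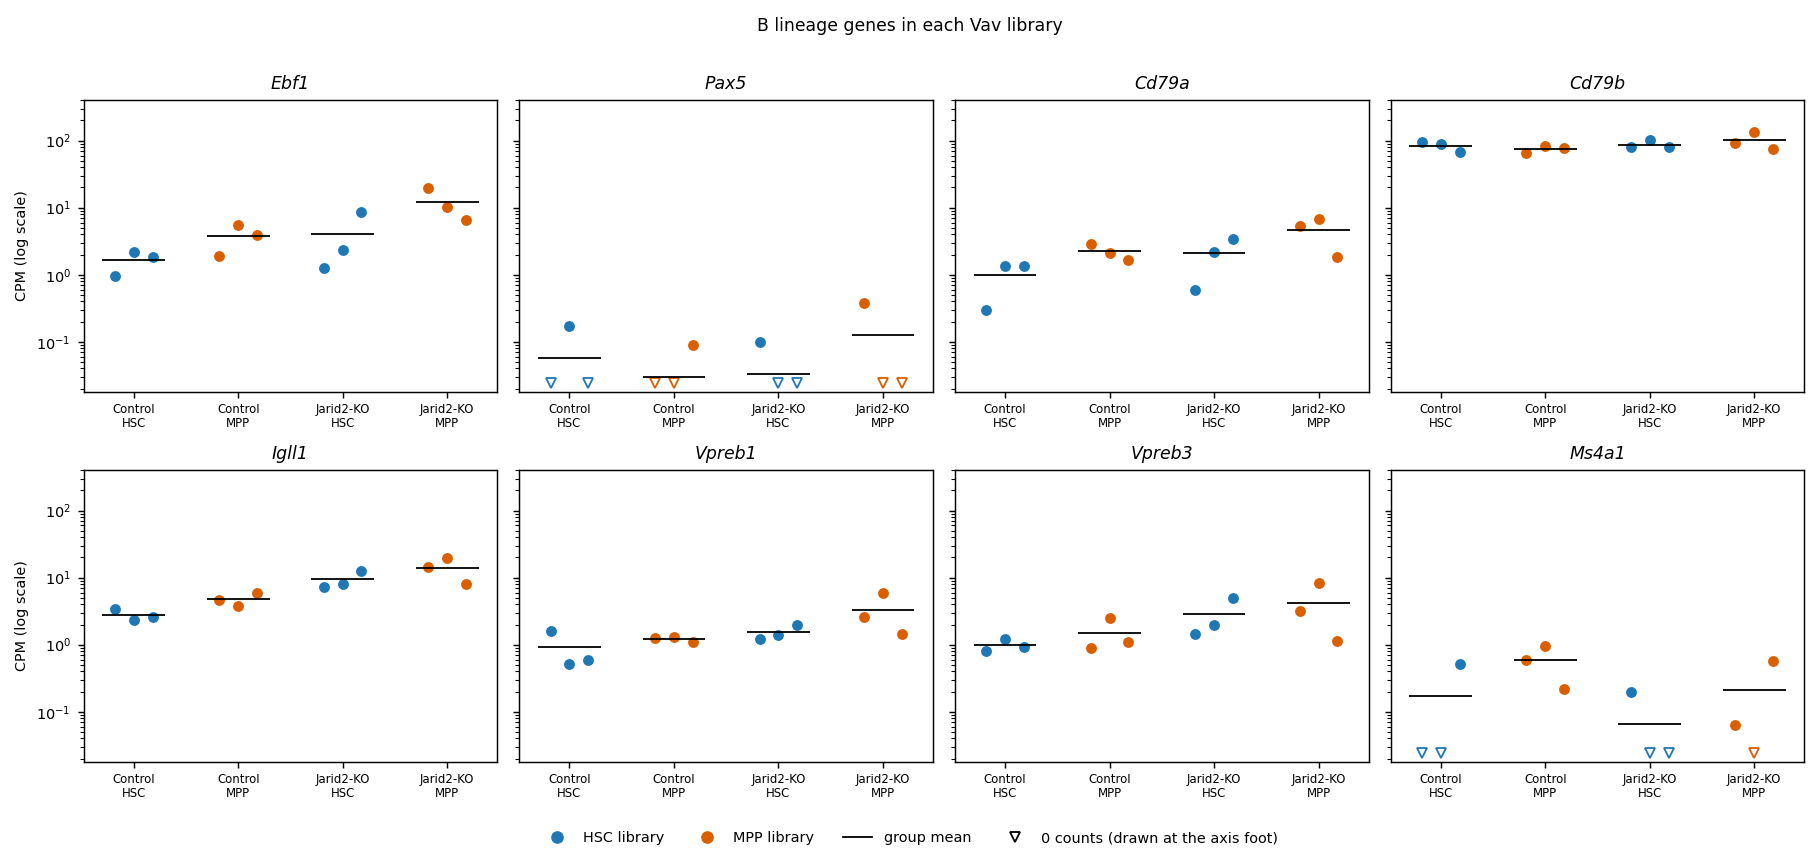
Level of each B lineage gene in the 12 Vav libraries, in CPM on a log scale. Points are libraries (3 in each group), lines are group means, and open triangles at the foot mark libraries with 0 counts. Cd79b lies between 64.5 and 134 CPM in every library, whereas Igll1 in the 3 Jarid2-KO HSC libraries (7.32 to 12.7) lies above the 3 control HSC libraries (2.33 to 3.38).

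The question of the Vav cohort is how loss of Jarid2 alters gene expression in HSC and MPP. Of the 8 members, 7 passed the filter on low counts and Pax5 did not. In edgeR's quasi-likelihood test with Benjamini-Hochberg adjustment, 0 of the 7 passed in Jarid2-KO against control HSC, where 0.569% of 15818 genes did, and 0 in MPP, where 0.948% did. At an unadjusted p under 0.05 there was 1 member in HSC (17% of all genes) and 4 in MPP (19.3% of all genes), all higher in Jarid2-KO. DESeq2 called 1 member in HSC, where it called 4.36% of all genes, and 1 in MPP (7.01%). Limma-voom also called 1 in HSC (8.97%) and 1 in MPP (2.91%), and each time it was Igll1. The median log2 fold change of the tested members was 0.95 in HSC and 1.42 in MPP, against -0.03 and 0.02 over all genes tested. In these bulk samples, fewer cells carrying a transcript and less transcript in each cell cannot be told apart.

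Igll1 (ENSMUSG00000075370, chr16:16860671-16863985, minus strand, mm10) gave the smallest p of the members in both cell types. Control HSC held 3.38, 2.33 and 2.61 CPM and Jarid2-KO HSC 7.32, 8.15 and 12.7, which did not overlap. Control MPP held 4.62, 3.77 and 5.86 CPM and Jarid2-KO MPP 14.3, 19.9 and 8.02, which did not overlap either. The log2 fold change was 1.69 in HSC (SE 0.38, edgeR adjusted p = 0.0646, higher in 3 of 3 libraries) and 1.55 in MPP (SE 0.37, adjusted p = 0.0646, 3 of 3). Both adjusted p missed the threshold of 0.05, and without the third Jarid2-KO MPP library the MPP value passed it, at 1.82 and an adjusted p of 0.0129. Without the first, the library low in Xist, it was 1.51 at an adjusted p of 0.0815. In HSC it stayed short of the threshold whichever library was left out, at 1.45 to 1.86 with adjusted p of 0.0882 to 0.295.

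Vpreb1 (ENSMUSG00000059305, chr16:16868402-16870843, minus strand), the partner of Igll1 in the surrogate light chain, lies 4415 bases from it in RefSeq. Control MPP held 1.27, 1.29 and 1.10 CPM and Jarid2-KO MPP 2.57, 5.85 and 1.43, so the lowest knockout library lay just above the controls. The log2 fold change in MPP was 1.42 (SE 0.58, edgeR adjusted p = 0.200), 0.76 without the second Jarid2-KO MPP library and 1.55 without the first. In HSC the control libraries held 1.62, 0.524 and 0.588 CPM and the Jarid2-KO libraries 1.20, 1.38 and 2.00, which overlapped. Vpreb1 counts are uncertain: its near-identical copy Vpreb2 (0 to 0.382 CPM) can share reads with it, and 108 of its exon bases overlap Top3b on the other strand (49.4 to 97.9 CPM), where reads cannot be told apart without strand.

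Vpreb3 (ENSMUSG00000000903, chr10:75943057-75949657, plus strand) read 0.808, 1.22 and 0.918 CPM in control HSC and 1.44, 1.96 and 5.05 in Jarid2-KO HSC, which did not overlap. It read 0.906, 2.53 and 1.10 CPM in control MPP and 3.20, 8.41 and 1.15 in Jarid2-KO MPP, where the third knockout library lay among the controls. In MPP the log2 fold change was 1.49 (SE 0.67, edgeR adjusted p = 0.239), 0.59 without the second Jarid2-KO library and 1.65 without the first. As with Vpreb1, the size of the MPP difference rested largely on that library.

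Ebf1 (ENSMUSG00000057098, chr11:44617317-45008091, plus strand) read 1.90, 5.61 and 3.88 CPM in control MPP and 19.4, 10.2 and 6.49 in Jarid2-KO MPP. All 3 knockout libraries lay above the controls, at a log2 fold change of 1.68 (SE 0.65, edgeR adjusted p = 0.182), and 1.12 without the first, highest, Jarid2-KO library. In HSC, control libraries held 0.955, 2.15 and 1.84 CPM and Jarid2-KO libraries 1.25, 2.30 and 8.72, which overlapped, with only the third knockout library high. Between Jarid2-KO MPP and Jarid2-KO HSC the log2 difference was 1.60 (SE 0.65, edgeR adjusted p = 0.364), 1.04 without the first Jarid2-KO MPP library and 2.74 without the third Jarid2-KO HSC library. Pax5 (ENSMUSG00000014030, chr4:44531145-44710487, minus strand), which acts after Ebf1, had 0 counts in 8 of the 12 Vav libraries and at most 6 counts, or 0.376 CPM, in the first Jarid2-KO MPP library. A count of 0 allows up to 3 counts, which was 0.110 to 0.286 CPM over these libraries, for counting error only.

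Cd79a (ENSMUSG00000003379, chr7:24897381-24902197, plus strand) read 0.294, 1.34 and 1.36 CPM in control HSC and 0.598, 2.21 and 3.44 in Jarid2-KO HSC. In MPP it read 2.86, 2.13 and 1.68 CPM in controls and 5.33, 6.79 and 1.81 in Jarid2-KO. Both pairs of groups overlapped. Cd79b (ENSMUSG00000040592, chr11:106311341-106314762, minus strand) read 96.6, 87.9 and 68.4 CPM in control HSC, 80.5, 101 and 79.3 in Jarid2-KO HSC, 64.5, 84.0 and 76.4 in control MPP, and 92.8, 134 and 74.8 in Jarid2-KO MPP. Its groups overlapped in all 4 pairings, and it was the most even of the members across the cohort. Ms4a1 (ENSMUSG00000024673, chr19:11249675-11266241, minus strand) had 0 counts in 5 of the 12 libraries and was at most 0.942 CPM, in a control MPP library.

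Groups that did not overlap were 2 of the 7 tested members in HSC (Igll1 and Vpreb3), against 16.2% of all genes in that direction, and 3 of 7 in MPP (Igll1, Vpreb1 and Ebf1), against 9.07%. The difference of the Jarid2-KO effect between MPP and HSC passed for 0 of 7 members in edgeR, where 0% of all genes passed, with 0 members at an unadjusted p under 0.05 (2.65% of all genes), 0 in DESeq2 and 0 in limma-voom. In control mice, MPP against HSC gave 0 of 7 members called (1.17% of all genes), 0 at an unadjusted p under 0.05 (8.44%), and 0 in DESeq2 and limma-voom. Cd79a and Igll1 were higher in all 3 control MPP libraries than in all 3 control HSC libraries, which 10.7% of genes were. In Jarid2-KO mice the same comparison gave 0 of 7 called (0.525% of all genes), 0 in DESeq2 and limma-voom, and Ebf1 alone at an unadjusted p under 0.05 (10.8%).

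Granulocyte and monocyte transcripts moved with these levels. The summed level of a list of 15 such genes, with all 15 tested, was 3394 to 9293 CPM in Jarid2-KO HSC against 1325 to 3883 in control HSC, and 6252 to 23856 in Jarid2-KO MPP against 5057 to 6518 in control MPP. In edgeR 0 of the 15 passed in either, and at an unadjusted p under 0.05 there were 11 higher and 0 lower in HSC and 8 higher and 1 lower in MPP. The first Jarid2-KO MPP library, highest in Ebf1, also stood apart with 4881 CPM of Mpo and 7104 of Elane, both neutrophil granule proteins. Igkc, the kappa light chain of mature B and plasma cells, was at 2.09 to 82.6 CPM and was highest in the third Jarid2-KO HSC library, where Ebf1 and Vpreb3 were also highest among the HSC. Summed erythroid transcripts were at 5532 to 6269 CPM in Jarid2-KO HSC against 8498 to 10963 in control HSC, and 4567 to 6553 in Jarid2-KO MPP against 8026 to 8134 in control MPP, with 0 of 11 genes past edgeR's test in either. At an unadjusted p under 0.05, 1 was lower and 0 higher in HSC, and 1 lower and 2 higher in MPP. The T cell marker Cd3e was at 0 in 8 of the 12 libraries and at most 0.125 CPM. The part of these cells in the member levels was not tested.

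**Figure D2:**
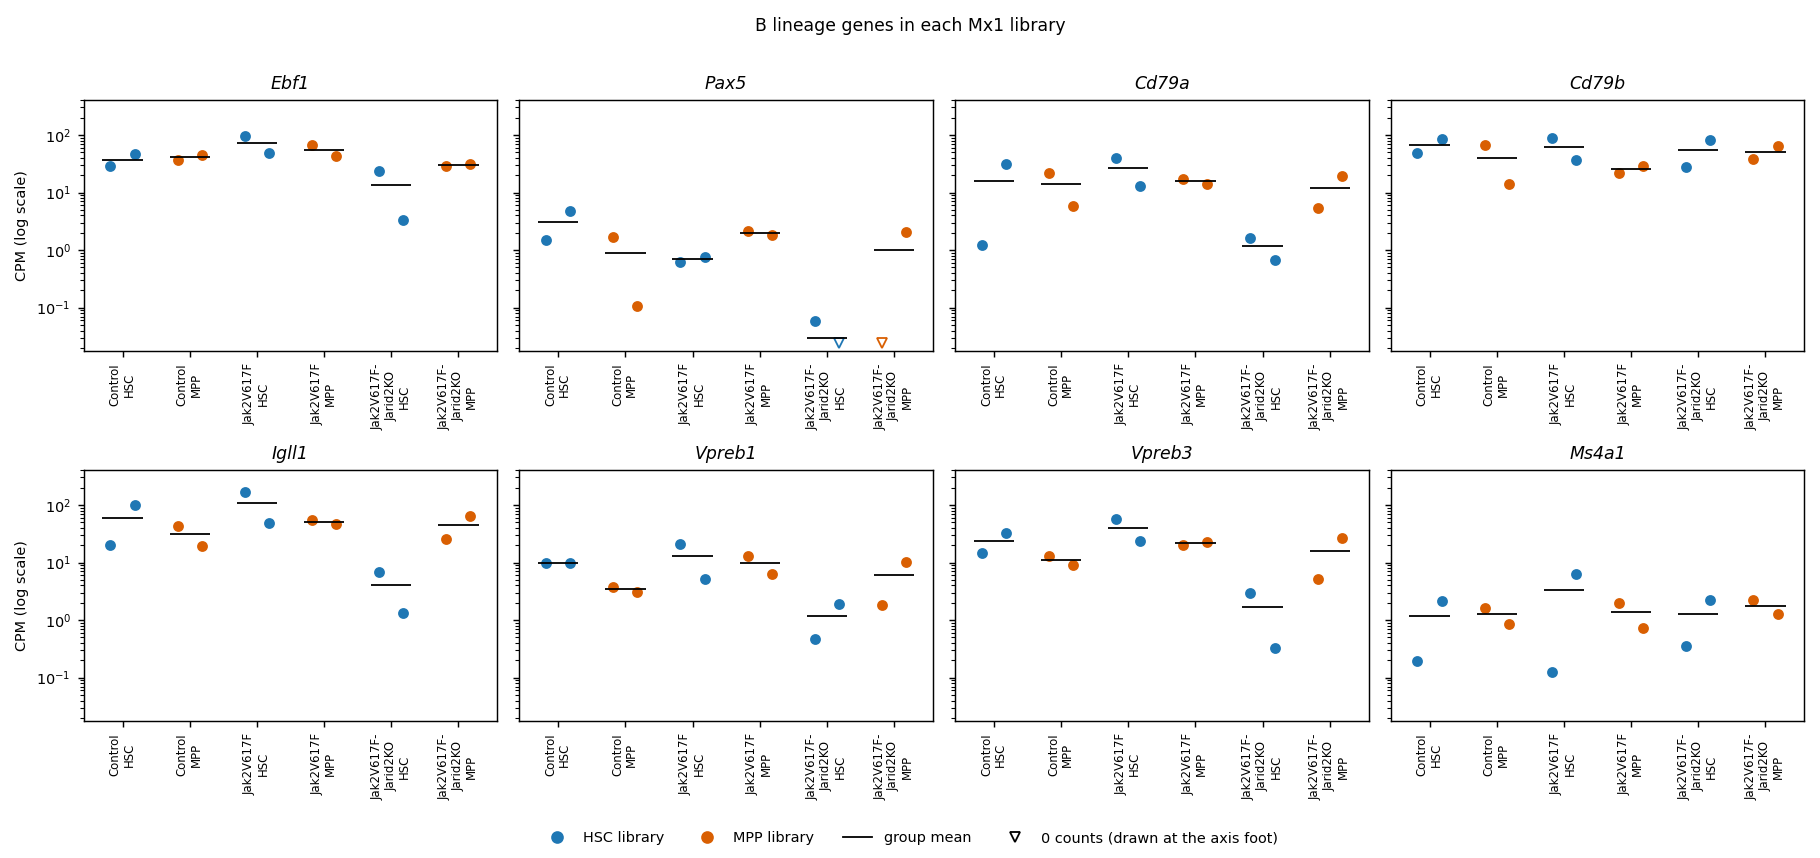
Level of each B lineage gene in the 12 Mx1 libraries, in CPM on a log scale, drawn as for the Vav cohort with 2 libraries in each group. The 2 double-mutant HSC libraries are the lowest of the cohort for Igll1 (6.97 and 1.33 CPM) and Vpreb3 (3.01 and 0.332), and the replicate points of most other groups lie far apart.

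The Mx1 cohort asks what Jak2V617F does and what loss of Jarid2 adds to it. All 8 members passed the filter, edgeR called 0 of them in each of the 7 comparisons, and it called 0% of 19616 genes in each. The biological coefficient of variation was 0.786, against 0.337 in the Vav fit.

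Igll1 read 19.9 and 101 CPM in control HSC, 170 and 49.2 in Jak2V617F HSC, and 6.97 and 1.33 in double-mutant HSC. The double-mutant libraries lay below all 4 others. The log2 fold change was -4.91 against Jak2V617F HSC (SE 1.09, edgeR adjusted p = 0.211, lower in 2 of 2 libraries) and -4.01 against control HSC (SE 1.05, adjusted p = 0.199, 2 of 2). In MPP it read 43.0 and 19.4 CPM in controls, 55.6 and 46.6 in Jak2V617F and 25.6 and 63.0 in double mutants, which overlapped both.

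Vpreb3 followed the same order in HSC, with 14.8 and 33.0 CPM in controls, 56.1 and 23.3 in Jak2V617F, and 3.01 and 0.332 in double mutants; the last of these is 3 counts. Its log2 fold change in double-mutant HSC was -4.71 against Jak2V617F (SE 1.12, edgeR adjusted p = 0.214) and -3.98 against control (SE 1.08, adjusted p = 0.221). In MPP the controls read 12.9 and 8.95 CPM, Jak2V617F 20.5 and 22.6, and double mutants 5.12 and 26.2, so the double mutants lay on either side of both. Vpreb1 read 9.87 and 9.86 CPM in control HSC, 20.9 and 5.21 in Jak2V617F HSC and 0.473 and 1.88 in double-mutant HSC. Its log2 fold change was -3.87 against Jak2V617F (SE 1.20, adjusted p = 0.448) and -3.49 against control (SE 1.18, adjusted p = 0.461). In MPP it read 3.81 and 3.02 CPM in controls, 13.0 and 6.41 in Jak2V617F and 1.80 and 10.2 in double mutants, with Vpreb2 at 0 to 4.17 CPM over the cohort.

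Ebf1 read 28.4 and 46.5 CPM in control HSC, 96.4 and 48.0 in Jak2V617F HSC, and 23.3 and 3.32 in double-mutant HSC. The second double-mutant library was the lowest of the cohort, while the first lay close to a control. The log2 fold change was -2.61 against Jak2V617F (SE 0.80, edgeR adjusted p = 0.446) and -1.69 against control (SE 0.78, adjusted p = 0.767). In MPP Ebf1 read 36.7 and 45.6 CPM in controls, 66.8 and 43.4 in Jak2V617F and 28.5 and 30.8 in double mutants, which lay below both other groups without reaching an unadjusted p of 0.05.

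Pax5 read 1.50 and 4.72 CPM in control HSC, 0.618 and 0.769 in Jak2V617F HSC, and 0.0591 and 0 in double-mutant HSC, where both libraries together held 1 count against 91 in the controls. The ratio of control to double-mutant shares was 79.5 (exact 95% interval 13.9 to 3180, for counting error only). The second control library held 68 of those 91 counts. From Jak2V617F HSC, with 19 counts, the ratio to double mutants was 17.7 (2.81 to 735, also for counting error only). The fitted log2 fold change of -6.31 against control (SE 2.40, edgeR adjusted p = 0.614) depends on the prior count and is no bound. In MPP Pax5 read 1.69 and 0.108 CPM in controls, 2.18 and 1.86 in Jak2V617F and 0 and 2.04 in double mutants, which overlapped both. Its exons share 125 bases with the antisense gene Gm12462 (0 to 0.836 CPM), where reads cannot be told apart without strand.

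Cd79a read 1.24 and 30.8 CPM in control HSC, 40.3 and 13.2 in Jak2V617F HSC, and 1.65 and 0.665 in double-mutant HSC. The double mutants lay below both Jak2V617F libraries, at -4.73 on the log2 scale (SE 1.39, edgeR adjusted p = 0.379), but overlapped the controls. Against control HSC the log2 fold change was -3.93 (SE 1.34, adjusted p = 0.474), and -0.40 without the second control library. In MPP it read 22.0 and 5.93 CPM in controls, 17.4 and 13.9 in Jak2V617F and 5.31 and 19.1 in double mutants. Cd79b did not share this order: it read 48.3 and 84.9 CPM in control HSC, 87.2 and 36.2 in Jak2V617F HSC and 27.3 and 81.2 in double-mutant HSC, and the second double-mutant HSC library, lowest in Igll1, had a Cd79b level close to the highest. In MPP Cd79b read 66.2 and 14.3 CPM in controls, 21.9 and 28.9 in Jak2V617F and 38.0 and 63.3 in double mutants. Its level was lower in every library above 4% heart counts than in every other library of the cohort, as given below. Ms4a1 ranged from 0.124 to 6.41 CPM, and those extremes were the 2 libraries of Jak2V617F HSC.

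In double-mutant against Jak2V617F HSC, 5 of 8 members had an unadjusted p under 0.05 (4.68% of all genes), and 6 of 8 were lower without overlap, which 10% of genes were. Against control HSC these were 6 of 8 (6.37%) and 5 of 8 (11.9%). The median log2 fold change of the members was -4.00 and -3.71, against -0.01 and 0.11 over all genes tested. DESeq2 called 5 members against Jak2V617F HSC, where it called 1.76% of all genes, and 4 against control HSC (2.23%). Limma-voom called 0 in both (0.0255% and 0.494% of all genes). Leaving out 1 library kept the direction of Igll1, Ebf1, Vpreb3 and Vpreb1 in both comparisons but moved the sizes. Without the second control HSC library Igll1 was at -2.54 against control (edgeR adjusted p = 0.697), and without the first double-mutant library at -5.77 (adjusted p = 0.0573). Against Jak2V617F it was at -3.55 without the first Jak2V617F library and -6.67 without the first double-mutant library. Ebf1 was at -0.83 against control and -1.75 against Jak2V617F without the second double-mutant library, and at -3.83 and -4.74 without the first. Over the libraries left out, Vpreb3 ran from -7.16 to -3.75 against Jak2V617F and from -6.44 to -3.11 against control, and Vpreb1 from -4.92 to -2.30 and from -4.54 to -2.75. The comparisons share the double-mutant libraries. In MPP, double mutants gave 0 members at an unadjusted p under 0.05 against Jak2V617F (3% of all genes) and 0 against control (4.71%), and 0 by DESeq2 and limma-voom. Without overlap, Ebf1 was lower than in Jak2V617F MPP (15.4% of genes) and in control MPP (7.98%), and Cd79b was higher than in Jak2V617F MPP (16.9%). Whether the difference in HSC departs from that in MPP was not tested.

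**Figure D3:**
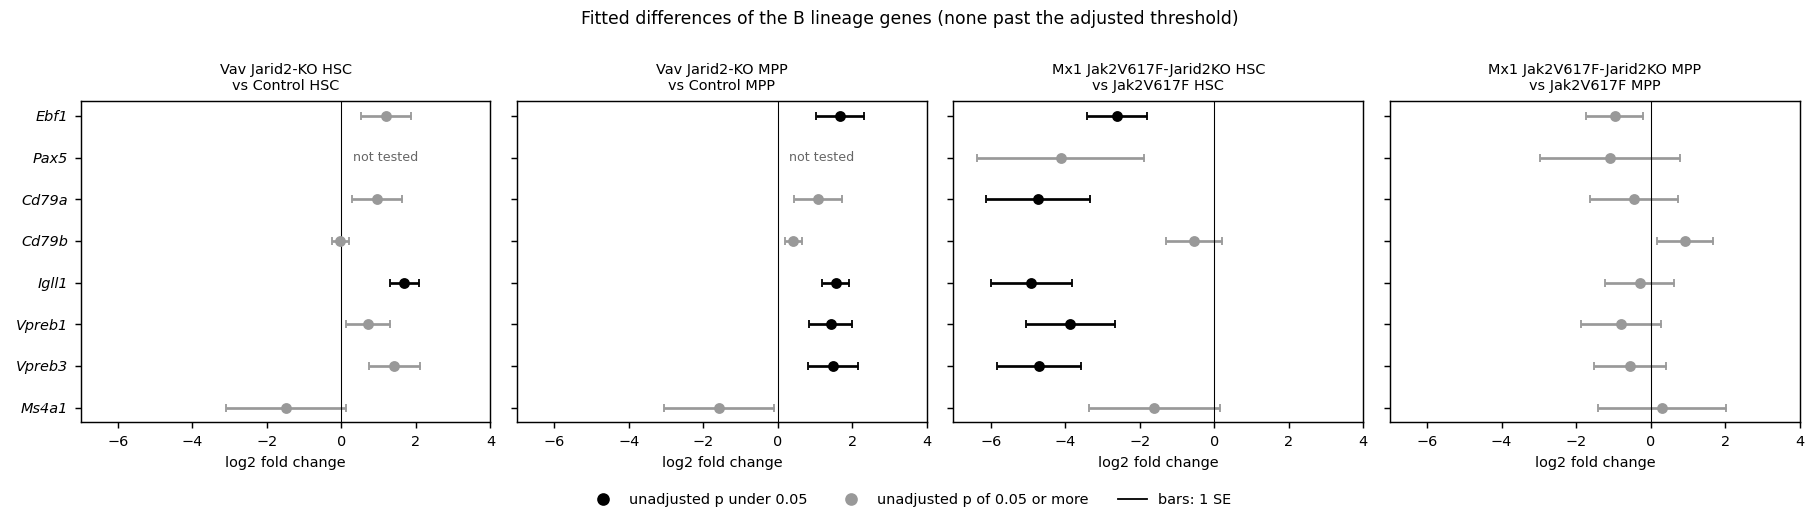
Log2 fold change of each member from edgeR, with bars of 1 SE, for Jarid2 knockout against its reference group in 4 comparisons; black points have an unadjusted p under 0.05. Igll1 stands at 1.69 and 1.55 in the Vav cohort and at -4.91 in double-mutant HSC, and no point passed the adjusted threshold.

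Jak2V617F against control gave 0 of 8 members called by edgeR, DESeq2 or limma-voom in either cell type, and 0 at an unadjusted p under 0.05 in HSC (1.52% of all genes) and in MPP (1.35%). In MPP, 4 members (Igll1, Vpreb1, Vpreb3 and Pax5) were higher in both Jak2V617F libraries than in both controls, which 16% of genes were. In HSC, Ebf1 was higher without overlap (13.7% of genes) and Pax5 lower (13.3%). Control MPP against control HSC gave 0 called by the same tools and 0 at an unadjusted p under 0.05 (2.67%), with Vpreb1 and Vpreb3 lower without overlap (13.7% of genes).

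Other transcripts moved with the members in HSC of this cohort, and their part in the member levels was not tested. The summed granulocyte-monocyte list was 34810 to 82132 CPM in control and Jak2V617F HSC and 3140 and 5410 in double-mutant HSC. In edgeR 0 of its 15 genes passed, and 13 were lower at an unadjusted p under 0.05 against Jak2V617F HSC and 14 against control HSC. In MPP the list was also low in double mutants, at 3770 and 6800 CPM, against 19390 to 81271 in controls and 23088 to 28687 in Jak2V617F. There 9 genes were lower at an unadjusted p under 0.05 against Jak2V617F and 12 against control, and 0 higher. In MPP the list medians were -2.51 and -3.54, but those of the members -0.51 and 0.16. In HSC they lay close, at -3.81 and -4.46 for the list and -4.00 and -3.71 for the members. A list of 10 HSC and MPP genes was higher in double mutants, with medians of 2.26 and 2.57 in HSC and 1.57 and 1.25 in MPP. In edgeR 0 of the 10 passed. At an unadjusted p under 0.05, 5 were higher and 1 lower against Jak2V617F HSC, and 6 and 2 against control HSC. Mpo was at 13652 and 17224 CPM in control HSC, 9756 and 6113 in Jak2V617F HSC and 939 and 366 in double-mutant HSC. Procr ran the other way, from at most 8.89 CPM in the first 4 of these libraries to 25.8 and 74.4 in double-mutant HSC. The second double-mutant MPP library broke that pattern, with 69.8 CPM of Procr beside 63.0 of Igll1 and 26.2 of Vpreb3. In edgeR 0 of the 11 erythroid genes passed, and at an unadjusted p under 0.05 5 were lower and 0 higher in double-mutant HSC against Jak2V617F HSC and 8 and 0 against control HSC, with list medians of -1.89 and -2.34. Their sum was 2720 and 5159 CPM in double-mutant HSC, 5414 and 6002 in control HSC and 5743 and 16610 in Jak2V617F HSC. In double-mutant MPP 7 were higher and 0 lower against either group, and the second of these libraries had the highest sum of the cohort, 25506 CPM. The first Jak2V617F HSC library, highest in Igll1, Vpreb3, Ebf1, Cd79a, Vpreb1 and Cd79b, had the next highest.

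The members were also set within the level of heart transcripts. In the libraries with 4% or less, Igll1 was at 1.33 CPM in the double-mutant HSC library and at 170 in the Jak2V617F HSC library. Among those above 4% it was at 6.97 and 49.2 CPM. The double mutant was thus lower at both levels, with 1 library on each side and no test. With a term for that level in the edgeR fit, the log2 fold change of Igll1 was -4.42 (adjusted p = 0.269), and Vpreb1 was the 1 member that passed, at -3.73 (SE 0.84, adjusted p = 0.00757), in a fit that called 2.75% of all genes. The median of Igll1 was 53.0 CPM in the 6 libraries at or under 4% and 36.1 in the 6 above, and that of Ebf1 33.8 and 44.5. Cd79b parted by this level, at 48.3 to 87.2 CPM (median 73.7) at or under 4% and 14.3 to 38.0 (median 28.1) above. The ranges of every other member overlapped between the levels. How far heart transcripts enter the Cd79b differences between groups was not tested.

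**Figure D4:**
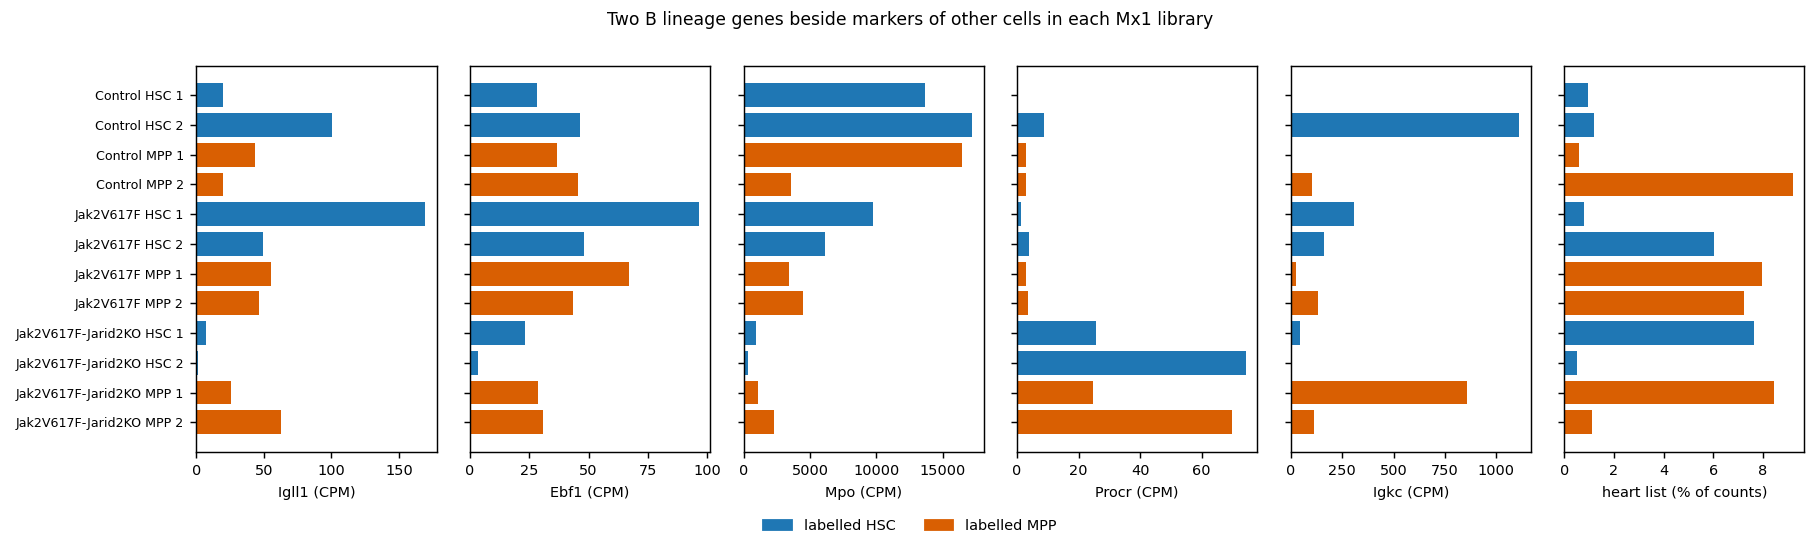
Levels of Igll1, Ebf1, Mpo, Procr and Igkc in CPM and the share of counts in the heart muscle list in percent, as bars from 0 for each Mx1 library. Igll1 is lowest in the double-mutant HSC libraries, where Mpo is 939 and 366 CPM and Procr 25.8 and 74.4.

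Mature B and plasma cell transcripts ran partly apart from the members. Igkc was at 6.86 and 1112 CPM in control HSC, 310 and 163 in Jak2V617F HSC and 44.0 and 2.88 in double-mutant HSC, and at 859 in the first double-mutant MPP library, where Igll1 was only 25.6. The second control HSC library held the most Igkc, with 1680 CPM of Ighm, the mu heavy chain, and 173 of Jchain, the joining chain of secreted antibody, and it also held the most Pax5. Its replicate had 6.86 CPM of Igkc and 0.327 of Jchain beside 28.4 of Ebf1 and 14.8 of Vpreb3. Cr2 and Fcer2a, receptors of mature B cells, stayed at or under 4.33 CPM in all 12 Mx1 libraries. The T cell markers Cd3e and Cd3d were at most 1.28 and 3.61 CPM.

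Lists of other genes of the B lineage were followed in the same fits. In Jarid2-KO against control MPP, 1 of 14 tested genes of pre-B and B cell receptor signalling fell and 0 rose, at a list median of -0.17. Of the lymphoid-primed and early B list 2 of 28 fell and 0 rose, at -0.14. Over all 15818 genes tested 69 fell and 81 rose, at a median of 0.02. Dntt, the polymerase that adds bases at antigen receptor joints, fell from 56.1, 47.9 and 36.8 CPM in control MPP to 17.0, 22.1 and 14.8, at a log2 fold change of -1.38 (SE 0.28, edgeR adjusted p = 0.0318). Satb1, a chromatin organiser of lymphoid cells, averaged 60.8 CPM in control MPP and fell to 24.0 in knockouts, a log2 change of -1.35 (SE 0.28) at an adjusted p of 0.0351. Cd72, a B cell surface co-receptor, fell to 57.4 CPM from a mean of 116, at -1.02 on the log2 scale (SE 0.17) and an adjusted p of 0.0114. In the same libraries the mean of Igll1 was 14.1 CPM against 4.75 in controls, so the sign of its difference was opposite to that of Dntt. In HSC the signs were the same: Dntt averaged 10.3 CPM in Jarid2-KO and 6.39 in controls, at a log2 fold change of 0.63 (SE 0.28, edgeR adjusted p = 0.271). The difference of the Dntt effect between MPP and HSC was -2.01 (SE 0.39, adjusted p = 0.704).

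In Jarid2-KO against control HSC 0 genes passed in either list. At an unadjusted edgeR p under 0.05, which 17% of all genes had, 2 signalling genes were higher and 2 lower. Of the lymphoid-primed list 6 were higher and 4 lower. In MPP, where 19.3% of all genes had such a p, the counts were 1 higher and 3 lower, and 2 higher and 8 lower. The lists of mature B cells (11 of 14 genes tested) and plasma cells (6 of 7) had 0 past the test in both cell types. At an unadjusted p under 0.05, mature B genes were 3 higher and 1 lower in HSC, and 1 higher and 2 lower in MPP. Plasma cell genes were 2 higher and 0 lower in HSC, and 2 higher and 1 lower in MPP. In control MPP against HSC, 2 of 14 signalling genes rose, Cd37 (log2 1.19) and Pik3ap1 (1.33). So did 5 of 28 of the lymphoid-primed list, among them Dntt (2.81), Flt3 (3.33), Satb1 (1.91) and Cd52 (2.00). In either list 0 fell, while of all 15818 genes 81 rose and 104 fell. In Jarid2-KO MPP against HSC, Flt3 (3.15) and Satb1 (1.80) rose, and Cd38 of the mature B list fell (-2.22), where 28 of all 15818 genes rose and 55 fell. The receptor of the B cell growth factor IL-7, Il7r, and the recombinase genes Rag1 and Rag2 stayed at or under 3.23 CPM in every Vav library.

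In the Mx1 cohort edgeR called 0 genes of each of these lists in each comparison. In double-mutant against Jak2V617F HSC, 2 signalling genes and 9 lymphoid-primed genes were lower at an unadjusted p under 0.05, and 1 lymphoid-primed gene was higher. Of all genes 4.68% had such a p. Blnk, the adaptor below the pre-B cell receptor, read 27.2 and 31.7 CPM in control HSC, 72.1 and 24.5 in Jak2V617F HSC and 3.96 and 2.88 in double-mutant HSC. Il7r read 0.261 and 8.89 CPM in control HSC, 21.4 and 13.4 in Jak2V617F HSC and 2.01 and 0.111 in double-mutant HSC, and Dntt 122 and 164, 149 and 52.3, and 12.5 and 0.775. In both the double-mutant libraries were low, though for Il7r they overlapped the controls.

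Across the 12 libraries of a cohort, members were compared with one another as Pearson correlations of log2(CPM + 1), given as descriptions over libraries that share groups and depth. In the Mx1 cohort Vpreb3 and Igll1 had the highest value, 0.96, followed by Cd79a and Igll1 at 0.92 and Igll1 and Ebf1 at 0.89. In the Vav cohort Vpreb1 and Igll1 stood at 0.85, Cd79a and Ebf1 at 0.84 and Vpreb1 and Vpreb3 at 0.83. Cd79b and Ms4a1 had low values with the other members in the Mx1 cohort, -0.23 to 0.31 and -0.14 to 0.14. In the Vav cohort Cd79b stood at 0.73 with Vpreb1, 0.66 with Vpreb3, 0.51 with Igll1 and 0.37 with Cd79a. With Ebf1 it stood at 0.32, with Pax5 at 0.09 and with Ms4a1 at -0.61. The genes outside the list most like the mean of the members were, among 13538 ranked in the Mx1 cohort, Rgs10 (0.94), Stom (0.94), Blnk (0.94), Ermap (0.92) and Tspan8 (0.92). Among 11750 in the Vav cohort they were Ppp1r42 (0.95), Tmem248 (0.95), Dgat2 (0.94), C5ar1 (0.92) and Olr1 (0.91).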

How the data were processed

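RNA-seq of sorted HSC and MPP was read from 1 deposited table per library for 24 of the 32 samples, and 8 H3K27me3 samples were not analysed here. Per the labels' protocols, libraries were made with a SMARTer Ultra Low kit from 3 to 5 ng of RNA. The submitters' processing notes name the build mm10 and, in no stated order, HTSeq 0.8.0, featureCounts 1.4.5 of Subread, STAR 2.0.4 and Partek 6.6, and the strand setting is not given in the sources used here. Per the file headers, the deposited tables hold raw counts per gene. The deposited CPM scale these counts to the library total, and the deposited RPKM divide CPM by exon length; recomputed values differed by at most 5.1e-11 and 6.2e-11. Exons of 7 of the 8 members are listed differently in the cohorts, but the merged exons differed for 0, and no test mixed cohorts.

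A quasi-likelihood model with robust dispersions was fitted to the counts of each cohort on its own, 4 groups of 3 for Vav and 6 groups of 2 for Mx1, with edgeR 4.0.16 (R 4.3.3). Scaling was by TMM, and filterByExpr kept genes at a minimum count of 10 and minimum total of 15, which left 15818 and 19616 genes with 8 and 6 residual degrees of freedom. P-values were adjusted by Benjamini-Hochberg over all genes, at a threshold of 0.05. The members and lists were chosen with earlier results of these data known. A fold change is given for each member with an unadjusted p under 0.05, up to 4 genes a list and comparison are named where they passed the adjusted threshold, at most 5 genes like the members' mean are named at a mean CPM of at least 1, and other genes outside the members were chosen after their values were seen. Lists followed in the text were matched by symbol; Ighd, Iglc1, Iglc3 and Ahsp had no match. Plasmacytoid dendritic cell and T cell lists had 0 genes past the test in every comparison. The scripts were tested on simulated data. No pair of replicates agreed within sampling noise. Same-numbered libraries did not deviate together throughout (correlations of -0.679 to 0.365), so replicate numbers were not taken as pairs. Alternatives were DESeq2 size factors, no filter, a minimum count of 20, DESeq2 1.42.0, limma-voom (limma 3.58.1) with quality weights, the replicate number as a block, a term for libraries above 4% heart counts, and leaving out each library; a crossed block was added after seeing the data. Intervals and limits of 3 counts cover counting error only.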

Additional observations from a re-analysis of the deposited data

Results flagged for a closer look

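Pax5 was picked out because its difference between Jak2V617F and control ran in opposite directions in the cell types. In HSC both Jak2V617F libraries (0.618 and 0.769 CPM, 10 and 9 counts) lay below both controls (1.50 and 4.72 CPM, 23 and 68 counts), at a log2 fold change of -2.19. In MPP both Jak2V617F libraries (2.18 and 1.86 CPM, 26 and 20 counts) lay above both controls (1.69 and 0.108 CPM, 35 counts and 1 count), at 0.93. The difference between cell types was not tested, and neither value had an unadjusted p under 0.05 in edgeR. Groups of 2 and 3 libraries were too small for the search for single libraries far from their group.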

How the results depend on the processing

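Fold changes were recomputed under the alternatives only for members with an unadjusted p under 0.05 in the reported edgeR fit. That choice favours a steady direction. Of these 198 values, 0 changed direction and 25 gained the adjusted threshold. As no member had passed it in the reported fit, no value could lose it. Of 146 counts of members called, 133 kept the value of 0. Without a filter on low counts edgeR called 1 member in Vav Jarid2-KO against control HSC (Igll1), 2 in MPP (Igll1 and Ebf1) and 1 in Jarid2-KO MPP against HSC (Ebf1). It called 2.55%, 4.02% and 1.73% of all 32516 genes there. In double-mutant HSC it called 3 against Jak2V617F and 3 against control (Cd79a, Vpreb3 and Igll1 in both), beside 0.827% and 1.03% of all 31195 genes. DESeq2 called 1 in Vav HSC and 1 in Vav MPP (Igll1), 5 in double-mutant against Jak2V617F HSC and 4 against control HSC. Its shares of all genes were 4.36%, 7.01%, 1.76% and 2.23%. Limma-voom called 1 in Vav HSC and 1 in Vav MPP (Igll1), beside 8.97% and 2.91% of all genes. A term for heart counts gave 1 (Vpreb1) in double-mutant against Jak2V617F HSC, beside 2.75% of all genes. Leaving out each library in turn gave 0 to 1 members in Vav Jarid2-KO against control MPP, where the 1 was Igll1 without the third Jarid2-KO library, and 0 elsewhere. Why these settings differ was not tested.

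Over all genes, the calls in Vav Jarid2-KO against control HSC were 90 in the reported fit, 828 without a filter, 690 by DESeq2 and 1419 by limma-voom; in MPP 150, 1306, 1109 and 461; in control MPP against HSC 185, 451, 474 and 735; in Jarid2-KO MPP against HSC 83, 563 and 404, with 101 by limma-voom; and for the difference of effects 0, 74, 7 and 0. In the Mx1 cohort, from 0, they were 258, 345, 5 and, with the heart term, 539 in double-mutant against Jak2V617F HSC, 320, 437, 97 and 459 against control HSC, 85, 80, 12 and 116 in MPP against Jak2V617F, and 189, 234, 0 and 309 against control MPP. Without a filter control MPP against HSC had 5, Jak2V617F against control 11 in HSC and 2 in MPP, and DESeq2 gave 3, 5 and 0. Without the third Jarid2-KO MPP library the Vav MPP comparison had 1512 calls among 16752 genes tested. Without 1 library each, Vav HSC had 14 to 47, Vav MPP without any other library 34 to 155, control MPP against HSC 61 to 102 and Jarid2-KO MPP against HSC 36 to 180. The highest Mx1 counts were 69 and 8 in double-mutant HSC against control and Jak2V617F without the first double-mutant library, and 129 in MPP against control without the second control library.

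With the replicate number as a block, 0 members passed in each of the 12 comparisons; over all genes Vav calls were 45, 106, 125, 55 and 0, in the order above, and 0 in each Mx1 comparison. A block with the numbers crossed in 3 Mx1 comparisons, chosen after seeing the data, gave 0 members, and 0, 0 and 4 genes in all. Where leaving out a library left 1 in a group, it was assumed to vary like the others. Depth limits Pax5 and Ms4a1, which were under 10 counts in 12 and 9 of the 12 Vav libraries.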
